A study of Homo sapiens with 4 samples.

Results

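The distal intergenic Pol II peaks were the peaks on chromosomes 1 to 22 and X whose midpoint lay more than 10 kb from the span of every gene of any type annotated by GENCODE (release 44, GRCh38). The rule used positions only, and it found 464 of 3916 shLacZ peaks and 1186 of 14321 shRRN3 peaks, or 1650 of 18237 peaks in all. The peaks came from ChIP-seq of RNA polymerase II (Pol II), in which chromatin fragments bound by an antibody to the enzyme are sequenced. All cells were SK-OV-3, a long-established line derived from a human ovarian cancer. The study asked how silencing RRN3, which RNA polymerase I needs to start transcription, affects transcription by Pol II. The control cells (shLacZ) carried a short hairpin RNA against the bacterial gene LacZ and the other cells (shRRN3) carried a hairpin against RRN3. Each hairpin had 1 Pol II library and 1 input library. The 2 inputs were not analysed here, and the labels do not say whether the hairpin cells were clones or mixed cultures.

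Each library was represented by 1 list of peaks. A list holds no counts, so depth is unknown from these lists and was taken from nowhere else, and no replicate error can be given. How reads with several possible positions, duplicate reads and the inputs were handled before peak calling is not given in the sources used here, and its part in the values for repeated sequence was not tested. Intervals are at the 95% level. They reflect counting error alone, take neighbouring peaks as independent, and set 2 libraries side by side rather than 2 conditions. The deposited score of a peak served to rank peaks within a list and, in 1 alternative, as a common minimum of 66.05 for both lists. The scores of different lists are not on a common footing where depth differs. As a check of the cell type, peaks within 1 kb of the starts of marker genes were counted. For the 5 markers of epithelial and SK-OV-3 cells, shLacZ had none and shRRN3 had 3 (KRT8, KRT18 and EPCAM). PAX8 was the 1 of 3 ovarian markers with a start peak in each list, and none of the 6 markers of blood, endothelium or fibroblasts had a start peak in either.

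Pol II far from genes is known from enhancers, which are themselves transcribed, from genes missing from an annotation, and from satellite DNA. Satellite DNA consists of short units repeated in tandem, and much of it flanks the centromeres, where the words GGAAT and ATTCC are the unit of a family of human satellites. Reads from such sequence can often be placed at several positions of a reference. Active enhancers are often bound by AP-1, a dimer of FOS and JUN family proteins that recognises TGANTCA.

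The sequences below, read from the forward strand of GRCh38 around the peak midpoint, show the kinds of sequence on which the results turn. The first belongs to the highest-scoring distal peak of shLacZ and has 12 GGAAT words, in capitals. The next belongs to the highest-scoring distal peak within 5 Mb of a centromere, which was at the same place in both lists and had 78% A or T. The last of the control cells belongs to the highest-scoring distal peak found in shLacZ alone. The other two belong to the highest-scoring distal peak of shRRN3 and to the highest-scoring one found in shRRN3 alone, with AP-1 matches in capitals.
shLacZ highest, chr16:46394685-46394984: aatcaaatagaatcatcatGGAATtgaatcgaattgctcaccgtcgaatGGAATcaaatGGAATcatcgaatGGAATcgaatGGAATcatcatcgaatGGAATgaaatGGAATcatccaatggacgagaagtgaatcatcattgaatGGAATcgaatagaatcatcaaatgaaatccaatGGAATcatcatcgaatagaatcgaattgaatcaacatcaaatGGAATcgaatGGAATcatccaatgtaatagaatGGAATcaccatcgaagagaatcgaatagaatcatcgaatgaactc
Both lists pericentromeric, chr3:93470437-93470736: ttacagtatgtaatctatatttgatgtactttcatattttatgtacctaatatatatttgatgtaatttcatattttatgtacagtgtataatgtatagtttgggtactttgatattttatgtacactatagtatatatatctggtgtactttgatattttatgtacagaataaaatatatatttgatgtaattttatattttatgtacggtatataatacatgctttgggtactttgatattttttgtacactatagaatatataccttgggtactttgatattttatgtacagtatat
shLacZ alone, chr6:61322893-61323192: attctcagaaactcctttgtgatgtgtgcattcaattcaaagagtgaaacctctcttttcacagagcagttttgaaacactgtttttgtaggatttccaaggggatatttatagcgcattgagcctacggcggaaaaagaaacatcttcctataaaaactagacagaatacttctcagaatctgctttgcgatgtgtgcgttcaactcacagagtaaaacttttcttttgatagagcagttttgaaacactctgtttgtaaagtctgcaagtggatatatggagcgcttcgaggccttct
shRRN3 highest, chr3:168884347-168884646: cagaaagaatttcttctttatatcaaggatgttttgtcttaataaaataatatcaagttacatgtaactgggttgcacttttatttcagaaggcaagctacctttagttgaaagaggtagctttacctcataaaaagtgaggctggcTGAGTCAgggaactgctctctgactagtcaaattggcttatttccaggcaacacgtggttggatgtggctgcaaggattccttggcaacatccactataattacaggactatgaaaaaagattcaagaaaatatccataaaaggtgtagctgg
shRRN3 alone, chr6:48827144-48827443: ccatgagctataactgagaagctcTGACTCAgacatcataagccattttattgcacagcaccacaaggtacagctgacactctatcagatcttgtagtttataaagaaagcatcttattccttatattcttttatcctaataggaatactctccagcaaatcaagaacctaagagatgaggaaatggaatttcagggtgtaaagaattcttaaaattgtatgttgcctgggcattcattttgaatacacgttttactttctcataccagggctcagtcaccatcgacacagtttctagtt

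The distal share was 11.8% in shLacZ (interval 10.9% to 12.9%) and 8.28% in shRRN3 (7.84% to 8.74%), a difference of -3.57 percentage points (-4.71 to -2.49). In both lists they were rarer than the distal share of the sequenced bases, which was 26.6%. The shRRN3 list held 2.56 distal peaks for each one of shLacZ (2.29 to 2.85), against 3.81 (3.66 to 3.95) among the peaks nearer to or inside genes. Chromosome 16 was the only chromosome with more distal peaks in shLacZ (69) than in shRRN3 (51). Among the 3916 shRRN3 peaks with the highest scores, 279 were distal and the difference was -4.72 points. The rule left few peaks near its threshold. In shLacZ 10 peaks lay 9 to 10 kb and 13 peaks 10 to 11 kb from a gene, and in shRRN3 these numbers were 35 and 57. The nearest midpoints on either side were at 9910 and 10220 bp in shLacZ and at 9982 and 10009 bp in shRRN3. Of the distal peaks, 1 in shLacZ and 16 in shRRN3 reached with their edge to within 10 kb of a gene.

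The distal peaks differed between the lists in kind of sequence. A peak was called mostly repeated when at least 50% of its 31-base words occurred more than once in the reference, and mostly unique otherwise. Words had to match exactly, so repeats whose copies differ could count as mostly unique. Mostly repeated sequence made up 34.3% of the distal shLacZ peaks (159 of 464) and 8.18% of the distal shRRN3 peaks (97 of 1186), a difference of -26.1 points (-30.7 to -21.6). The difference was -12.6 points with 1 peak per chain and -4.32 points when 90% of the words had to be repeated. Outside the distal peaks the shares were 1.22% and 0.807%. In this class shRRN3 had fewer peaks than shLacZ, with a ratio of 0.610 (0.469 to 0.790). This ratio counts peaks. In the 3 longest shLacZ chains the bases covered differed less between the lists than the numbers of peaks, as given below. Among mostly unique distal peaks, 305 in shLacZ and 1089 in shRRN3, the ratio was 3.57 (3.14 to 4.07), an interval that covers the 3.81 of the other peaks. With the mostly repeated distal peaks left out, the distal shares of the lists differed by -0.462 points (-1.47 to 0.482).

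GGAAT or ATTCC words filled at least 20% of the bases in 26.3% of the distal shLacZ peaks (122) and in 6.49% of the distal shRRN3 peaks, and in no peak outside the distal class in either list. The difference was -19.8 points over peaks and -4.31 points with 1 peak per chain, and it was -6.03 points at a limit of 30% of bases. Most of these peaks were gathered on a few chromosomes. In shLacZ 42 such peaks lay on chromosome 16, 41 on chromosome 1, 19 on chromosome 10 and 13 on chromosome 5. In shRRN3 the numbers were 29, 22, 10 and 11 on the same chromosomes. The class of mostly unique peaks was not free of satellite sequence, since 9.51% of its shLacZ peaks and 1.29% of its shRRN3 peaks met the 20% limit. Distal peaks of mostly repeated sequence had a median width of 167 bp in shLacZ and 254 bp in shRRN3, against 237 and 356 bp for mostly unique ones.

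**Figure D1:**
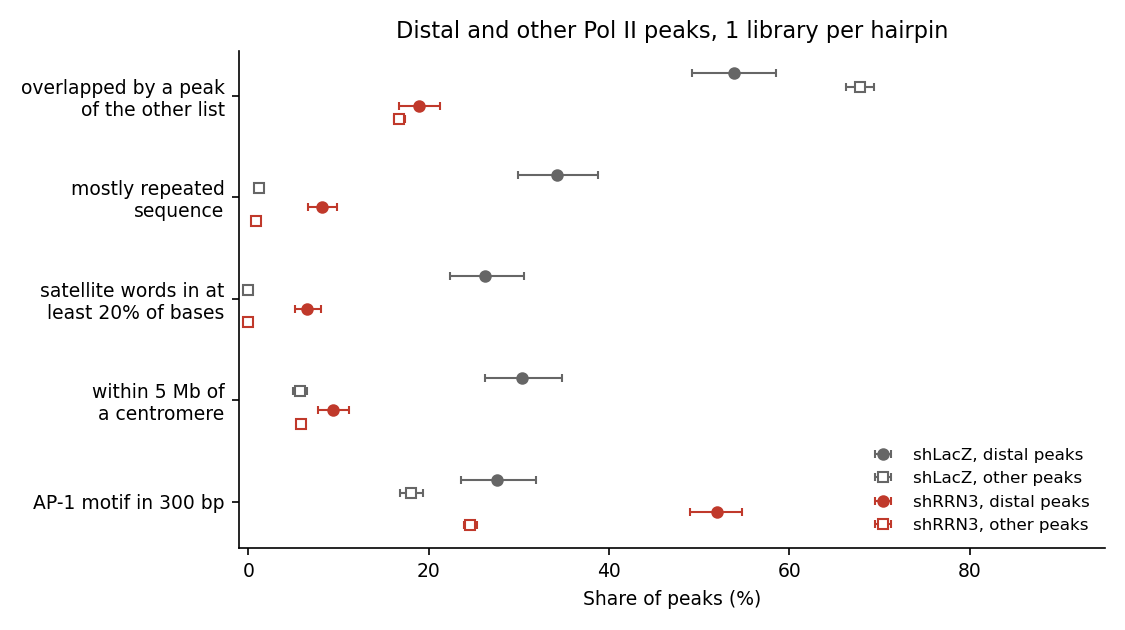
Share of peaks (x axis, %) with each of 5 properties (rows, where satellite words are GGAAT and ATTCC), for distal peaks (filled circles) and other peaks (open squares) of shLacZ (grey) and shRRN3 (red); bars are 95% exact intervals over peaks. Distal shLacZ peaks were mostly repeated in 34.3% and distal shRRN3 peaks in 8.18%, while an AP-1 motif was found in 27.6% and 51.9%.

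Within 5 Mb of a centromere lay 30.4% of the distal shLacZ peaks (141 of 464) and 9.36% of the distal shRRN3 peaks (111 of 1186), a difference of -21.0 points (-25.6 to -16.6). The same stretches held 15.6% of all distal bases, a share above that of shRRN3 and below that of shLacZ. The ratio of peak numbers was 0.787 (0.608 to 1.02) there and 3.33 (2.94 to 3.78) elsewhere. Among the other peaks the pericentromeric shares were 5.74% in shLacZ and 5.83% in shRRN3. Inside the centromeres themselves, taken as the runs rich in CENP-B boxes (the binding site of a centromere protein), lay 11.4% of the distal shLacZ peaks and 1.60% of the distal shRRN3 peaks, beside 7.82% of distal bases. The reference has long gaps of unknown sequence beside some centromeres. When the 5 Mb were counted over sequenced bases only, a choice made after the data were seen, the shares were 44.8% and 12.7%. Of the distal peaks counted above as elsewhere, 20.7% in shLacZ and 3.72% in shRRN3 lay within this sequenced distance. Of the mostly repeated distal peaks of shLacZ, 96.2% lay within that distance, and of those of shRRN3 79.4%. Among mostly unique distal peaks the pericentromeric shares within 5 Mb were 15.4% and 6.52%, a difference of -8.89 points (-13.6 to -4.92).

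The highest-scoring pericentromeric distal peak was the same in both lists. It spanned chr3:93470359-93470814 in shLacZ, with a score of 1518.78 and rank 4 among the distal peaks of that list. In shRRN3 it spanned chr3:93470345-93470829, with a score of 1429.51 and rank 2. It lay inside the centromere run, 373 kb from the nearest gene, RNU6-488P, and 402 kb from PROS1, which encodes the anticoagulant protein S. Only 4.96% of its 31-base words in shLacZ were repeated and its GC content was 22%. Shorter stretches did recur in the window printed above, such as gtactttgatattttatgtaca, so the peak was not free of tandem repeats. A similar group of AT-rich peaks stood on chromosome 4 at chr4:49709101-49711964, where shLacZ had 6 peaks and shRRN3 had 3 within 10 kb, with top scores of 864.26 and 1282.01.

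Next, the overlap of the lists was examined. A peak counted as overlapped when a peak of the other list shared at least 1 bp with it. In shLacZ 53.9% of the distal peaks (250 of 464, interval 49.2% to 58.5%) had an overlapping shRRN3 peak, while the share over all shLacZ peaks was 66.2%. The distal share differed from that of the other shLacZ peaks by -14.02 points (-18.8 to -9.27). Those other peaks include 1597 within 1 kb of a gene start, of which 83.2% were overlapped. Of the shLacZ peaks in gene spans but not within 1 kb of a start, 53.3% were overlapped. The lower share was therefore not particular to distal peaks. Mostly unique distal shLacZ peaks differed from those in gene spans by 1.48 points (-4.64 to 7.502). Of the distal shRRN3 peaks 19.0% (225 of 1186, 16.8% to 21.3%) were overlapped by a shLacZ peak, near the 16.9% over all shRRN3 peaks, and the difference from the other peaks was 2.21 points (-0.0194 to 4.62). The lists differ in length, and this bears on both shares. Against the shRRN3 list reduced to as many peaks as shLacZ has, 31.7% of the distal shLacZ peaks were overlapped, and 43.4% of the 279 distal peaks left in shRRN3. The shares over all peaks were not computed with the reduced list, so these values cannot be read as high or low for distal peaks. Each of the 5 highest-scoring distal peaks of either list was overlapped. On chromosome 16, the peak that led shLacZ, chr16:46394453-46395217 with a score of 2365.97, was matched by chr16:46394348-46395249 in shRRN3, with a score of 1406.61 and rank 3. The next in shLacZ, chr16:46390274-46390929, had a score of 2221.56 and was matched by a shRRN3 peak with a score of 166.72. Joined across the lists at gaps of up to 10 kb, the distal peaks formed 911 stretches, of which 147 held peaks of both lists, 104 held shLacZ peaks alone and 660 held shRRN3 peaks alone. Stretches of all peaks were not counted in this way. Since the whole shRRN3 list is the longer, these numbers do not set the distal class apart.

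The overlap was then read by kind of sequence. In shRRN3, 81.4% of the mostly repeated distal peaks were overlapped by a shLacZ peak, against 13.4% of the mostly unique ones, a difference of 68.0 points (58.9 to 74.8). In shLacZ the shares were 52.2% and 54.8%, a difference of -2.55 points (-12.0 to 6.91). Of the 97 mostly repeated distal peaks of shRRN3, 38 lay on chromosome 16 and 23 on chromosome 1. The intervals take such neighbouring peaks as independent, and no value per chain was computed. The overlap was also read within quintiles of the score of each whole list. From the lowest quintile to the highest, 27.8%, 51.4%, 38.9%, 45.1% and 79.6% of the distal shLacZ peaks were overlapped, with no steady order between the lowest and the highest. In the other shLacZ peaks the share was 46.4% in the lowest quintile and 95.4% in the highest. For those in gene spans but not within 1 kb of a gene start, these shares were 33.9% and 92.1%. In shRRN3 the distal shares from the lowest quintile to the highest were 5.04%, 9.02%, 12.5%, 26.5% and 46.5%. In the highest quintile of shRRN3 the mostly unique distal peaks were overlapped in 36.1% and the other peaks in 44.9%, while 36 of the 37 mostly repeated distal peaks were overlapped. The 5 highest-scoring distal peaks found in shLacZ alone lay on chromosomes 6, 16 and 1 and were all mostly repeated, with scores of 331.97 to 216.79. The 5 highest found in shRRN3 alone were all mostly unique, with scores of 406.67 to 277.37. A peak found in 1 list alone could still lie close to a peak of the other. The shLacZ peak on chromosome 6 lay 1651335 bp from a shRRN3 peak, but the others lay 56, 222, 651 and 1929 bp from one. The distances of the shRRN3 peaks from a shLacZ peak were 9, 363, 44081, 111302 and 1333874 bp.

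**Figure D2:**
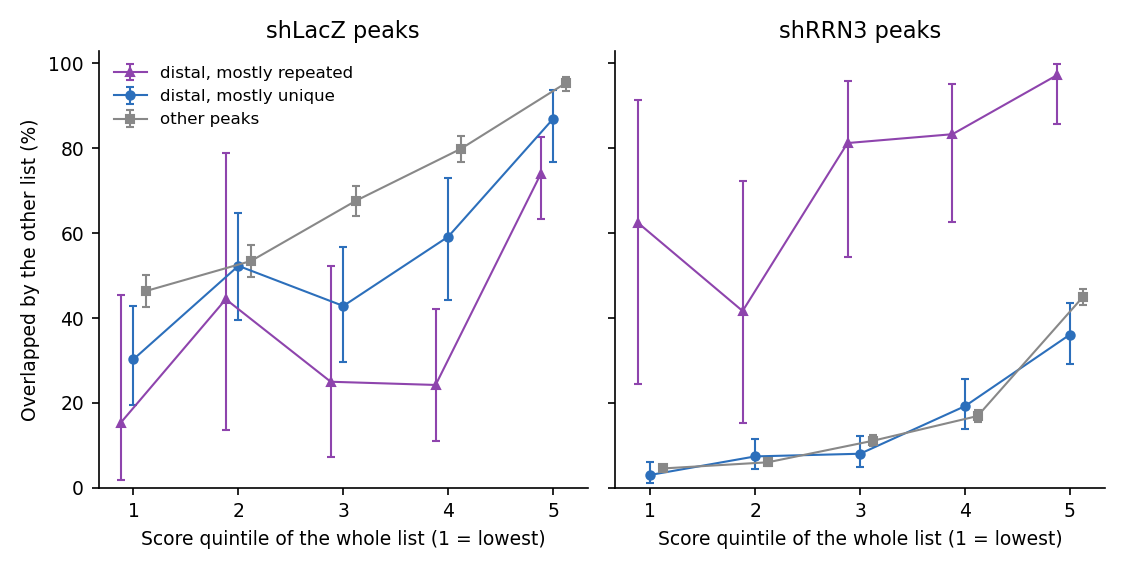
Share of peaks overlapped by the other list (y axis, %) in each quintile of the score of the whole list (x axis), for shLacZ (left) and shRRN3 (right); bars are 95% exact intervals over peaks. Mostly repeated distal peaks of shRRN3 lie above the mostly unique ones in every quintile, reaching 97.3% in the highest.

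The distal peaks were also examined for clustering. Peaks of a list were joined into a chain when the gap between them was at most 10 kb. Chains of at least 2 peaks held 53.4% of the distal shLacZ peaks (248 in 39 chains) and 46.0% of the distal shRRN3 peaks (546 in 174 chains), a difference of -7.41 points (-12.7 to -2.05). Over all peaks the order was the other way, with 35.6% in shLacZ and 51.3% in shRRN3. Long chains were fewer but held much of the shLacZ list. Chains of 10 or more peaks held 30.8% of its distal peaks in 7 chains and 9.19% of those of shRRN3 in 6 chains. The 3 longest chains held 96 of the 464 distal shLacZ peaks. Without the stretches of these chains the difference turned to 1.93 points (-3.91 to 7.65), without the mostly repeated peaks it turned to 3.84 points (-2.43 to 9.88), and with gaps of up to 50 kb it was 0.336 points. It was -2.19 points (-8.38 to 3.95) without pericentromeric peaks, -10.7 with gaps of up to 5 kb, -13.7 with the reduced shRRN3 list and -20.3 with the common minimum score. Pericentromeric peaks were left out by plain distance, unknown sequence included. The long chains at chr16:46380668-46401673 and chr1:143184669-143273219 therefore stayed in, at 8.08 and 18.1 Mb from the centromere by that count. Counted once each, chains numbered 255 in shLacZ and 814 in shRRN3, a ratio of 3.19 (2.77 to 3.69).

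The 3 longest shLacZ chains were rich in satellite words, which filled a median of 21.6%, 25.5% and 23.3% of the bases of their peaks. The first, at chr16:34571497-34596160, held 33 distal peaks of shLacZ, and shRRN3 had 23 in nearly the same span. The peaks of shRRN3 were wider, with a median of 440 bp against 242 bp, so that 10.3 kb was covered in shRRN3 and 10.5 kb in shLacZ. At chr16:46380668-46401673, 177 kb from SHCBP1, shLacZ had 30 peaks and shRRN3 had 17, which covered 7.72 and 7.62 kb. The numbers of peaks thus differed more than the bases covered. At chr1:143184669-143273219, 621 kb from the histone gene H3-7, shLacZ had 33 peaks on 6.98 kb and shRRN3 had 22 on 5.35 kb. Another chain on chromosome 1, chr1:125168634-125184486, held 13 shLacZ peaks and only 2 shRRN3 peaks, and included the distal peaks farthest from any gene, at up to 3603.9 kb from LINC01691 in shLacZ and 3601.5 kb in shRRN3. Its words filled a median of 23.99% of bases. On chromosome 5, at chr5:49656894-49666379 and 730 kb from EMB, an adhesion glycoprotein, 10 shLacZ and 9 shRRN3 peaks stood beside each other, with GGAAT or ATTCC words in a median of 54.9% of the bases of the shLacZ peaks.

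Of the 7 shLacZ chains with 10 or more peaks, 2 lay on chromosome 3 near MECOM, which encodes a zinc finger transcription factor, and there no distal peak was mostly repeated. MECOM was the nearest protein-coding gene of 32 distal peaks in shLacZ and 17 in shRRN3. The chain at chr3:169048590-169071945 held 14 shLacZ peaks, and shRRN3 had 8 there, which covered 6.02 and 6.65 kb. A neighbouring chain at chr3:168941597-169006021 held 10 peaks in shLacZ on 52.7 kb and 6 in shRRN3 on 34.6 kb. It included the widest distal peak of either list, a shLacZ peak of 35798 bp at chr3:168970224-169006021 with a score of 1714.49. A single shRRN3 peak overlapped it, over 7.19 kb, and the remaining 28.6 kb held no shRRN3 peak of any class. Its end reached 3 kb into the non-coding RNA gene LINC01997. The highest-scoring distal peak of shRRN3, chr3:168883051-168885942 with a score of 1480.86, lay 17.7 kb from LINC02082 in the same neighbourhood and overlapped 4 shLacZ peaks. The number of copies of this stretch in the cells was not measured here.

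In shRRN3 the longest chain lay in mostly unique sequence at chr3:104388474-104448470. It held 29 shRRN3 peaks, 7 of them overlapped, and shLacZ had 9 in the same stretch. The nearest protein-coding gene was ALCAM, a cell adhesion molecule, at 919 kb. No GENCODE gene covered the stretch, but RefSeq places the non-coding RNA LOC105374020 there, and 32 shRRN3 and 9 shLacZ distal peaks had their midpoint in it. The chain at chr1:218581049-218597398 held 15 shRRN3 peaks, of which 1 was overlapped, and shLacZ had 3 in the same stretch. It lay 137 kb from TGFB2, a ligand of the TGF-beta pathway. The chain at chr6:100269269-100306494 held 10 shRRN3 peaks and 3 of shLacZ, at 78.6 kb from SIM1, a transcription factor. In all, 63 distal peaks of shLacZ (13.6%) and 196 of shRRN3 (16.5%) had their midpoint in a gene of RefSeq on the same build. These peaks were outside genes by GENCODE and inside genes by RefSeq.

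**Figure D3:**
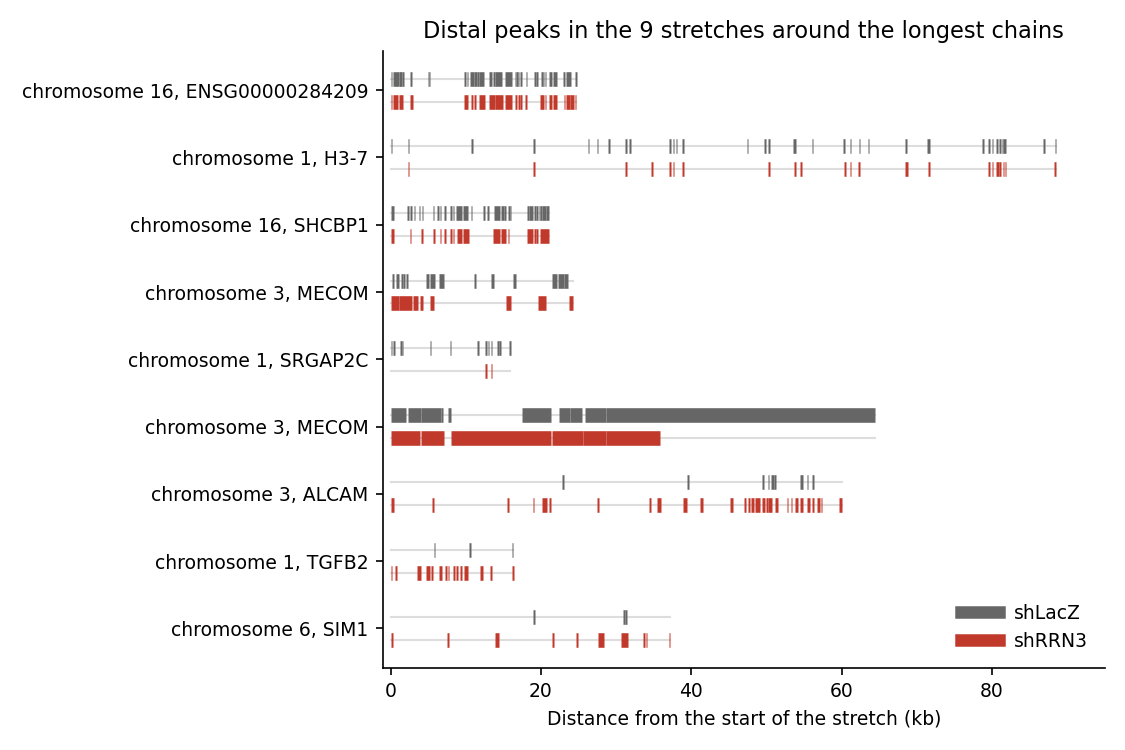
Distal peaks (blocks, drawn at least 0.2 kb wide) along 9 stretches that hold the longest chains, as distance in kb from the start of each stretch (x axis), with shLacZ in grey above shRRN3 in red; labels give the chromosome and nearest protein-coding gene. The first 3 stretches and the one near SRGAP2C are rich in satellite words and have more shLacZ peaks (33, 33, 30 and 13). Those near ALCAM, TGFB2 and SIM1 have more shRRN3 peaks (29, 15 and 10) than shLacZ peaks (9, 3 and 3). Among all mostly unique distal peaks the ratio of shRRN3 to shLacZ is 3.57.

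The median distance from a distal peak to the nearest gene was 63.3 kb in shLacZ (51.0 to 70.2) and 29.9 kb in shRRN3 (27.6 to 32.6), on either side of the 42.0 kb of distal bases. More than 100 kb from every gene lay 31.5% of the distal shLacZ peaks, 11.97% of the distal shRRN3 peaks and 23.5% of distal bases. The gap between the lists was narrow among mostly unique peaks, with medians of 28.7 kb (24.6 to 35.1) and 26.8 kb (24.9 to 29.3), and both were below that of distal bases. Mostly repeated peaks lay at medians of 127 and 84.5 kb. With each chain counted once the medians were 34.2 and 26.3 kb. Protein-coding genes were farther away, at medians of 194 kb in shLacZ and 84.7 kb in shRRN3.

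The study asked about the ends of genes, so the end of the nearest gene that each distal peak faced was noted. The 3′ end was faced by 56.5% of the distal shLacZ peaks (51.8% to 61.0%) and by 51.0% of the distal shRRN3 peaks (48.1% to 53.9%). Among mostly unique peaks the shares were 53.4% and 50.1%. In shRRN3 the mostly unique peaks that faced a 3′ end lay at a median of 27.0 kb and those that faced a 5′ end at 26.7 kb. The nearest gene was a long non-coding RNA for 32.1% and 32.8% of the distal peaks of shLacZ and shRRN3, a processed pseudogene for 23.1% and 23.7%, and a protein-coding gene for 19.6% and 28.2%. Unprocessed pseudogenes were the nearest gene of 17.5% of the distal peaks in shLacZ and of 4.81% in shRRN3.

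**Figure D4:**
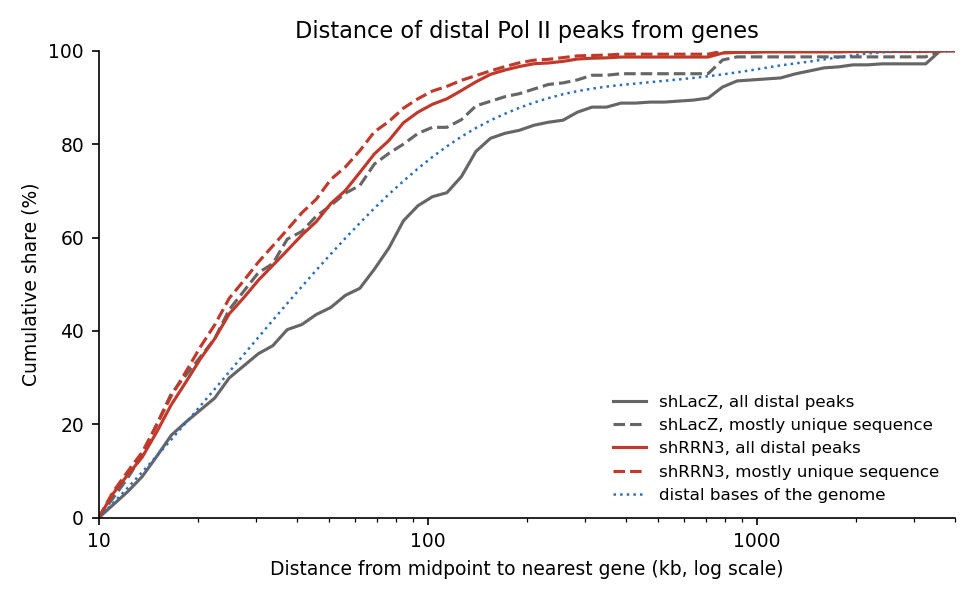
Cumulative share (y axis, %) of distal peaks within a given distance of the nearest gene (x axis, kb, log scale), for all distal peaks (solid) and mostly unique ones (dashed) of shLacZ (grey) and shRRN3 (red) and for distal bases (dotted blue). The solid shLacZ line (median 63.3 kb) lies to the right of distal bases (42.0 kb) beyond the nearest distances. The other 3 lines of peaks lie to the left of distal bases up to 1775 kb. Farther out the dashed shLacZ and solid shRRN3 lines cross the line of distal bases.

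Motifs were then counted in the 300 bp around each midpoint, on both strands. The AP-1 motif TGANTCA was present in 27.6% of the distal shLacZ windows and in 51.9% of the distal shRRN3 windows, a difference of 24.4 points (19.2 to 29.1). All 300 bp tiles of distal sequence held it in 9.16%. Among mostly unique peaks the shares were 37.0% (31.6% to 42.7%) and 55.1% (52.1% to 58.1%), a difference of 18.0 points (11.8 to 24.04). The same motif was present in 28.0% and 35.9% of the other peaks in gene spans and in 6.32% and 7.53% of the peaks within 1 kb of a gene start. Mostly unique distal peaks held it more often than the peaks in gene spans by 9.01 points in shLacZ (3.31 to 14.97) and by 19.2 points in shRRN3 (16.0 to 22.4). The ratio of shRRN3 to shLacZ distal peaks was 4.81 (3.97 to 5.87) with the motif and 1.70 (1.48 to 1.95) without it. TGANTCA can also arise in satellite sequence, as the chromosome 16 peak above holds 2 matches.

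The motif lay near the middle of the peaks. In mostly unique distal shRRN3 peaks there were 19.97 matches per 100 peaks in each 50 bp bin within 50 bp of the midpoint, and 2.16 at 500 to 1000 bp from it. In shLacZ these values were 14.8 and 2.16. The peaks found in shRRN3 alone held the motif in 56.5% of mostly unique windows, and those overlapped by a shLacZ peak in 45.9%, a difference of the overlapped from the others of -10.6 points (-19.1 to -1.94). In shLacZ the order was opposite, with 29.7% in peaks found in that list alone and 43.1% in overlapped ones, a difference of 13.4 points (2.53 to 23.7). At least 2 matches stood in 15.3% of the mostly unique distal windows of shRRN3 and in 10.2% of those of shLacZ.

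**Figure D5:**
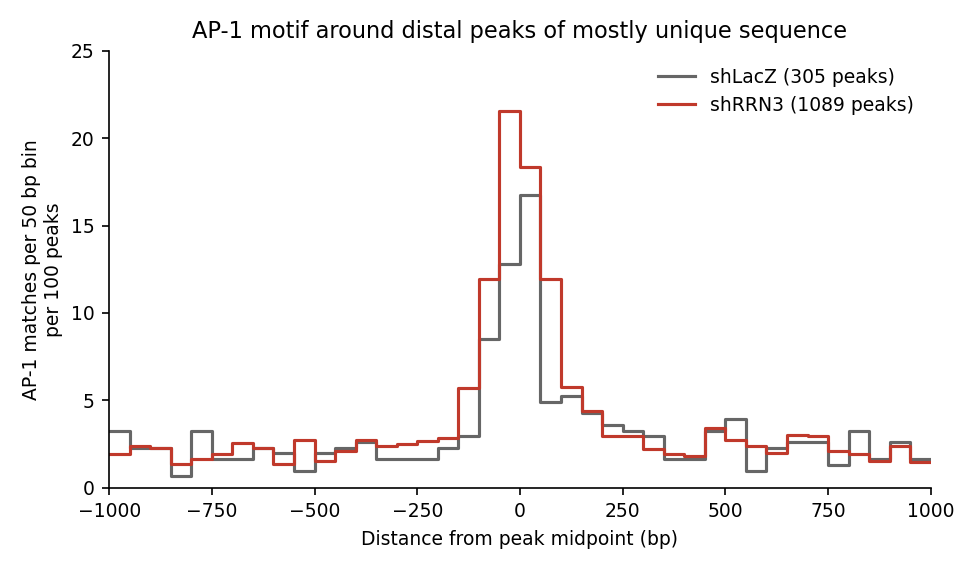
AP-1 (TGANTCA) matches per 50 bp bin per 100 peaks (y axis) against distance from the peak midpoint in bp (x axis), for mostly unique distal peaks of shLacZ (grey, 305 peaks) and shRRN3 (red, 1089 peaks). Matches are gathered within about 100 bp of the midpoint in both lists, at up to 21.6 in shRRN3, and are near 2.16 farther out.

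Other sequence features were counted in the same windows. The GC box GGGCGG was present in 2.37% and 4.22% of distal windows in shLacZ and shRRN3, against 2.30% of distal tiles and 61.2% and 59.3% of the windows at gene starts. Windows resembling CpG islands, with a GC content of at least 50% and an observed to expected CpG ratio of at least 0.6, were 0.862% and 1.69% of distal peaks and 79.3% and 74.4% of peaks at starts. The TATA word TATAAA was present in 21.1% and 24.03% of distal windows, below the 33.3% of distal tiles. In the other peaks in gene spans it was present in 24.6% and 23.6%. GGAATG, the core word of the TEAD factors, was present in 45.3% of the distal shLacZ windows and 31.8% of the distal shRRN3 windows. The share was 17.2% in tiles, and 23.8% and 23.4% in the other peaks in gene spans. GGAATG overlaps the satellite word GGAAT, and among mostly unique peaks the shares were 34.1% and 29.5%, a difference of -4.62 points (-10.7 to 1.18).

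Finally, the protein-coding genes nearest to the distal peaks were examined. In shLacZ 27 of the 202 nearest genes (13.4%, 8.997% to 18.8%) had a peak within 1 kb of their start, against 7.58% of all protein-coding genes. In shRRN3 the numbers were 182 of 619 (29.4%, 25.8% to 33.2%) and 23.8%. Of the 18 coding genes that were nearest to at least 10 distal peaks, 9 had more in shRRN3 and 9 more in shLacZ. Among all mostly unique distal peaks the ratio of shRRN3 to shLacZ was 3.57 (3.14 to 4.07). A higher count in shRRN3 alone therefore does not set a gene apart. The genes given next were chosen after their counts were seen. SPP2 was the nearest coding gene of 3 distal peaks in shLacZ and 9 in shRRN3, 8 of all 12 with an AP-1 match. GJA1, which encodes the gap junction protein connexin 43, had 2 and 9, also 8 of all 11 with a match. Over all distal peaks the share with a match was 27.6% in shLacZ and 51.9% in shRRN3. Other genes had fewer matches, with 6 of 54 peaks for ALCAM and 2 of 21 for TGFB2. CYP24A1, the enzyme that inactivates vitamin D, had 1 and 6, at 12.4 to 29.6 kb. NCOA3, a nuclear receptor coactivator, had 1 and 7, and NECTIN3, an adhesion molecule, had 0 and 9. Of the 5 highest-scoring distal peaks found in shRRN3 alone, the nearest coding genes were MMUT, NID2, KRT80, CBLB and ACTBL2. The peak near NID2, a basement membrane protein, lay 11.97 kb from it with a score of 340.42. Being the nearest gene does not show that a peak acts on it.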

How the data were processed

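Pol II ChIP-seq was carried out in SK-OV-3 cells with a shLacZ or shRRN3 hairpin, 1 Pol II library each, and the authors called peaks in each library. The 2 input libraries were not used here. Each deposited list gives the coordinates, a name and a score for every peak. Peak names point to the program MACS. Its version, the threshold, the aligner, the handling of multi-mapping and duplicate reads and the use of the inputs as control are not given in the sources used here. The deposited score was taken as 10 times the −log10 of the authors' p-value, which rests on the lowest scores of 50.03 and 50, and served for ranks within a list and, in the stricter-score alternative, as a common minimum of 66.05 (the shLacZ median), which kept 1930 and 8737 peaks. The build is hg38 per the submitters' notes.

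Distances ran from peak midpoints to gene spans of GENCODE release 44 (62062 genes). Centromeres were the runs of 100 kb bins with at least 20 CENP-B boxes. Shares have exact Clopper-Pearson intervals, differences Newcombe intervals, and ratios exact conditional intervals. Medians have order-statistic intervals. Distances of distal bases were taken at every 1000th base. RefSeq genes came from GRCh38.p14. No p-value was computed, since each hairpin had 1 library. The named peaks were the 5 highest-scoring distal peaks of each list, the 5 highest of each list alone, the 3 farthest from genes and the 5 longest chains. Chains of lower rank (chr3:168941597, chr4:49709101, chr5:49656894 and the one near SIM1) and the genes of the last paragraph were added after their values were seen. The members, gene lists and measures were chosen with earlier results of these data known. Island-like windows, the AP-1 profile and the RefSeq match were added after the values were seen. Alternatives changed the distance, genes, score, list length, overlap, gap and repeat limits. The code was tested on simulated lists and overlaps were checked with bedtools 2.31.1. Scripts ran in Python 3.11.15 with pandas 2.3.3, numba 0.67.0, scipy 1.17.1, matplotlib 3.10.9 and numpy 2.4.6.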

Additional observations from a re-analysis of the deposited data

Results flagged for a closer look

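Signals outside chromosomes 1 to 22 and X, which the distal rule does not cover, were flagged as data that the comparisons did not use. The lists held 98 such peaks in shLacZ and 42 in shRRN3.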

How the results depend on the processing

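Of 90 alternatives, 33 left a value within its interval, 54 moved it and 3 reversed it, and 13 were added after the data were seen. No paired analysis was possible because each hairpin had 1 library. Depth is unknown, and the causes of the shifts were not tested.

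The difference in distal share was negative throughout. It moved to -5.64 points with protein-coding genes only, -6.34 with a stricter score, -4.72 with shRRN3 reduced to its highest-scoring peaks, -0.991 without pericentromeric peaks, -0.462 without mostly repeated peaks and -1.75 without the 3 longest shLacZ chains. The ratio of distal peaks moved to 2.22 at 20 kb, 1.54 at 50 kb, 0.601 with the reduced list, 3.19 with 1 peak per chain, and 3.33, 3.57 and 3.05 without pericentromeric peaks, repeated peaks and the 3 chains.

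Overlap of shLacZ moved to 31.7% with the reduced list and 33.6% with a required overlap of 50% of both peaks. No share over all peaks was computed under these settings. For shRRN3 it moved to 21.6% at 20 kb, 31.1% at 50 kb, 43.4% with the reduced list, 15.5%, 13.4% and 14.7% without pericentromeric peaks, repeated peaks and the 3 chains, and 13.2% with 50% of both.

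The difference in clustering reversed to 3.84 points without repeated peaks, 1.93 without the 3 chains and 0.336 at gaps of 50 kb. It moved to -20.3 with a stricter score and -13.7 with the reduced list. The pericentromeric difference kept its sign and moved to -27.5 points at 20 kb, -34.1 at 50 kb, -31.7 with a stricter score, -16.4 with the reduced list, -15.1 with 1 peak per chain, -8.89 without repeated peaks, -16.5 within 1 Mb and -32.1 over sequenced bases.

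The shLacZ median distance moved to 82.2 kb with a stricter score, 34.2 with 1 peak per chain, 32.5 without pericentromeric peaks, 194 to protein-coding genes and 71.3 to gene starts. That of shRRN3 moved to 34.0 with the reduced list, 26.3 with 1 peak per chain, 84.7 to protein-coding genes and 36.0 to gene starts.

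The difference in mostly repeated peaks moved to -35.6 points with a stricter score, -19.9 with the reduced list, -12.6 with 1 peak per chain, -14.8 without pericentromeric peaks, -17.1 without the 3 chains and -4.32 when 90% of words had to be repeated. That in GGAAT words moved to -26.6, -13.0, -4.31, -13.0 and -11.4 under the first 5 of these and to -6.03 at 30% of bases. The AP-1 difference moved to 18.0 points without repeated peaks.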
